A study of Mus musculus with 24 samples.

Results

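A panel of 38 genes that mark Kupffer cells, other macrophages and lymphocytes was followed in mouse liver. The genes were picked by symbol as markers of these cells, and each was read from 1 probe set, the brightest where a gene has several. Of the 38, 37 were measured, out of 19938 genes with a probe set of a single symbol; Slc11a1 was not analysed here. The measured genes are 8 Kupffer cell markers, 3 subunits of C1q, 12 macrophage and myeloid markers, 2 markers of lipid-associated macrophages, 4 T cell markers, 6 markers of NK and cytotoxic lymphocytes and 2 B cell markers.

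Liver RNA of 24 male C57BL6 mice was hybridised to Mouse Gene ST arrays, 1 array per mouse and 6 mice per group: Ogg1-/- on a high-fat diet (HFD), WT on HFD, Ogg1-/- on chow and WT on chow. Ogg1-/- mice lack 8-oxoguanine DNA glycosylase in the whole body, so that immune cells and hepatocytes carry the same deletion, and the allele was kept by matings of heterozygotes backcrossed to C57BL/6J. Mice were kept singly and fed for 10 weeks, from 10 weeks of age in the labels; the methods of the study give a later start. All values are log2 signals of whole liver, so that fewer cells of a type and less RNA per cell cannot be told apart.

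Kupffer cells are the resident macrophages of the liver sinusoids. They are replaced slowly from within the liver, and from blood monocytes when they are lost, and they clear particles, complement-coated microbes and modified lipoproteins from the blood. On the Kupffer cell surface Vsig4 binds complement fragments and Clec4f binds glycans, C1q is the recognition part of the classical complement pathway and is made largely by macrophages, and lymphocytes of the liver include many NK cells.

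The deleted gene was read first. In Ogg1-/- HFD livers the Ogg1 probe set lay between 5.70 and 6.03, against 6.34 to 6.57 in WT HFD livers, and in Ogg1-/- Chow livers between 5.85 and 6.0, against 6.26 to 6.55 in WT Chow livers. The groups did not overlap in either diet (exact two-sided permutation test, p = 0.00216, the smallest that 6 against 6 allows), and whether its probes fall inside the deletion is unknown here. The liver Ogg1-/- Chow replicate 1 stood apart. It held 14.6% of all squared deviations from the group means, against 2.57% to 6.43% in each of the other 23 livers. It was the highest of its group in 22 of the 37 markers and the lowest in 7, and the counts and differences that it moves most are given with and without it. The tissue label was checked on 10 hepatocyte genes, whose mean log2 level ran from 12.98 to 13.48 over the 24 livers.

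On HFD, Ogg1-/- livers differed from WT livers in 10 of the 37 markers, and the changes went both ways within the macrophage genes. Vsig4, Msr1, Mpeg1 and Clec4f were lower, as was the B cell gene Ms4a1. C1qa, C1qc, Tyrobp and Cd5l were higher, as was Nkg7 of the cytotoxic lymphocytes. A marker was counted as changed at an adjusted p under 0.05 in limma over all 35556 probe sets. By that rule 5 markers were higher, beside 10.3% of all probe sets (11.9% of genes), and 5 were lower, beside 9.55% of all probe sets (11.8% of genes), so that the counts lie near the background. Vsig4 and Msr1 were also lower by at least 1.5-fold, as were 4.8% of probe sets. The median difference of the 37 markers was 0.09 on the log2 scale, against 0.03 over all genes. Single livers moved the counts: 0 markers were higher without WT HFD replicate 4, 1 without Ogg1-/- HFD replicate 1 or WT HFD replicate 6, 2 without Ogg1-/- HFD replicate 2 or 6, and 3 without WT HFD replicate 1 or 2, while 3 were lower without Ogg1-/- HFD replicate 1 or WT HFD replicate 2. Without Ogg1-/- Chow replicate 1, which is in neither group but in the shared spread, 10 were higher. The additions were C1qb, Cd68, Fcer1g, Folr2 and Marco. The counts over all 35556 probe sets moved as well. There 3648 were higher with all livers in and 4922 without Ogg1-/- Chow replicate 1. Without each other liver named here, 2485 to 2854 were higher. Lower were 3397 with all livers in, 2370 without Ogg1-/- HFD replicate 1 and 2691 without WT HFD replicate 2.

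**Figure D1:**
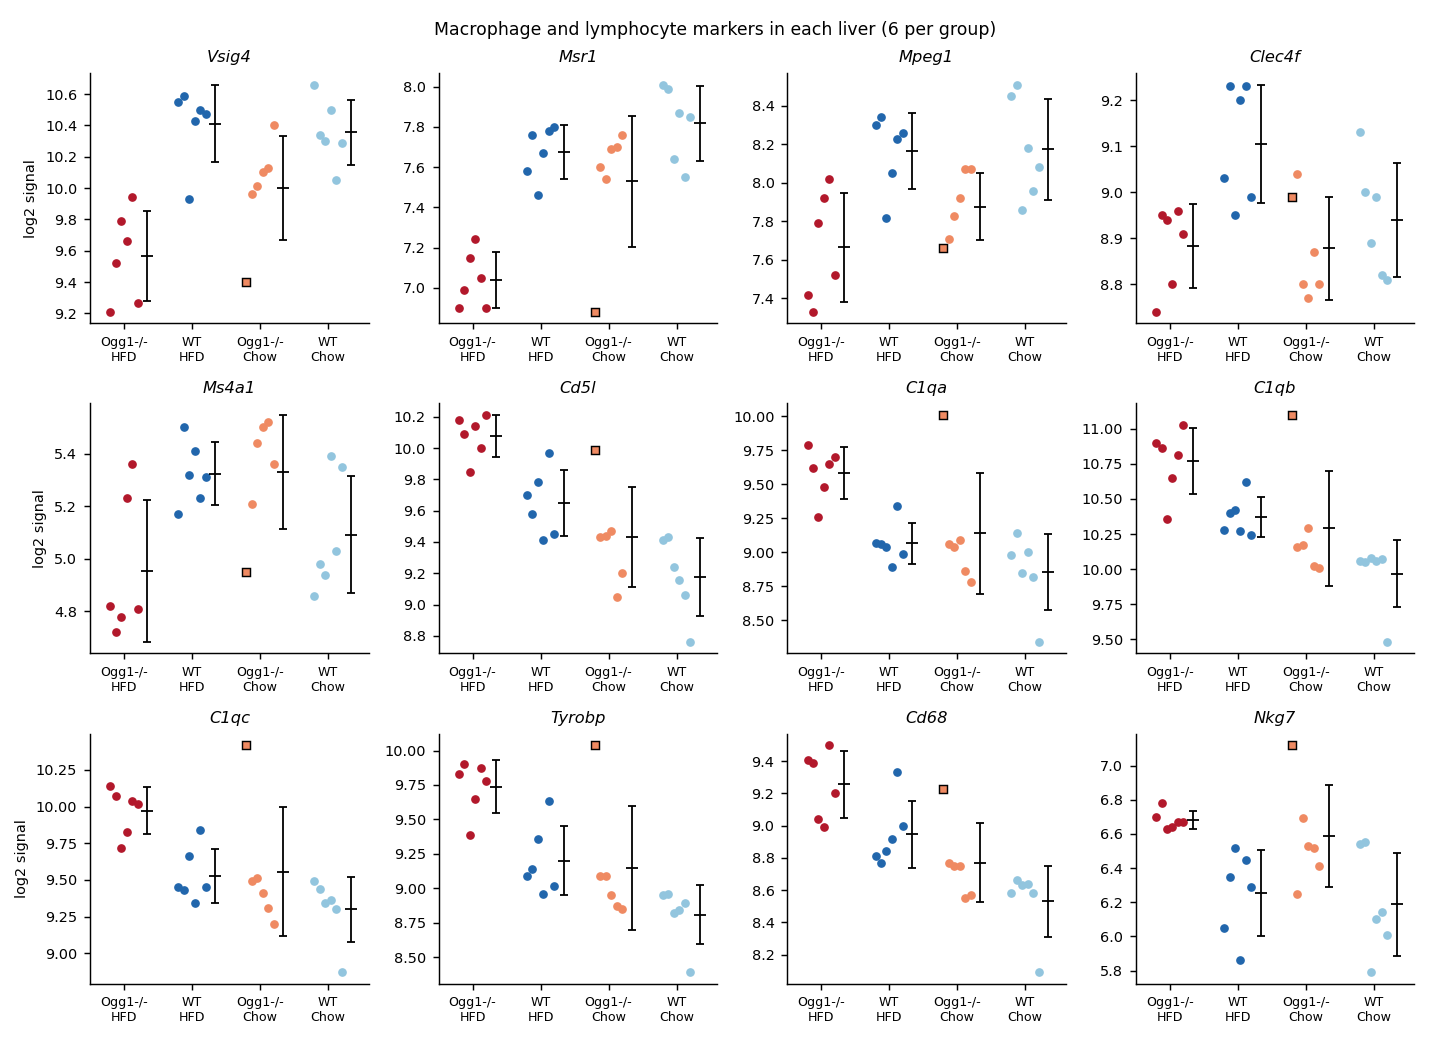
Log2 signal (y axis) of 12 markers in each of 24 livers, by group (x axis); each point is a liver, and the bar beside the points is the mean ± SD of 6 livers. The square with a black edge is Ogg1-/- Chow replicate 1. Msr1 and Nkg7 do not overlap between Ogg1-/- HFD and WT HFD livers, and the square lies above the other Ogg1-/- Chow livers in C1qa, C1qb and C1qc and below them in Msr1.

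Among the 8 Kupffer cell markers, 2 were lower and 1 was higher in Ogg1-/- HFD livers. Vsig4, a receptor for C3b and iC3b that captures complement-coated particles, had a lowest, median and highest log2 signal of 9.21, 9.59 and 9.94 in Ogg1-/- HFD livers, against 9.93, 10.49 and 10.59 in WT HFD livers. The ranges overlapped only through WT HFD replicate 3. The difference was -0.85 ± 0.15 (SE; limma, adjusted p = 0.0016), a 1.80-fold fall. Clec4f, a C-type lectin found on Kupffer cells in the mouse, had values of 8.74, 8.92 and 8.96 in Ogg1-/- HFD livers and 8.95, 9.11 and 9.23 in WT HFD livers (difference -0.22 ± 0.07, adjusted p = 0.032). Its call was lost without each of 5 livers (Ogg1-/- HFD replicates 1 and 4, and WT HFD replicates 2, 4 and 5).

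Cd5l went the other way. It codes for AIM, a secreted protein of tissue macrophages under the control of the oxysterol receptor LXR. It reached 9.85, 10.12 and 10.21 in Ogg1-/- HFD livers, against 9.41, 9.64 and 9.97 in WT HFD livers. The difference of 0.43 ± 0.13 (adjusted p = 0.026) lost its call without each of 5 livers (Ogg1-/- HFD replicates 1 and 6, and WT HFD replicates 2, 4 and 6).

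The other 5 Kupffer cell markers did not pass. Adgre1, which codes for the F4/80 antigen, averaged 7.79 ± 0.19 in Ogg1-/- HFD livers and 8.08 ± 0.22 in WT HFD livers (SD, n = 6 each; limma adjusted p = 0.061). Folr2, a folate receptor of resident macrophages, averaged 8.35 ± 0.19 in Ogg1-/- HFD livers and 8.02 ± 0.21 in WT HFD livers (adjusted p = 0.093). These 2 genes differed in opposite directions. Timd4, a receptor for phosphatidylserine on long-lived Kupffer cells, had 7.16 ± 0.07 in Ogg1-/- HFD livers and 7.30 ± 0.16 in WT HFD livers, with a 95% interval of the difference of -0.32 to 0.02. Marco, a scavenger receptor, had 5.99 ± 0.19 in Ogg1-/- HFD livers and 5.77 ± 0.07 in WT HFD livers (adjusted p = 0.18). Cd163, the haemoglobin-haptoglobin receptor, had 5.88 ± 0.31 in Ogg1-/- HFD livers and 5.92 ± 0.25 in WT HFD livers, with an interval of -0.31 to 0.23.

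The 3 chains of C1q, whose genes neighbour each other, were all higher in the mean. C1qa had values of 9.26, 9.64 and 9.79 in Ogg1-/- HFD livers, against 8.89, 9.05 and 9.34 in WT HFD livers. The difference was 0.52 ± 0.16 (adjusted p = 0.024), a 1.43-fold rise, and the ranges overlapped in 1 liver of each group. C1qc had 9.72, 10.03 and 10.14 in Ogg1-/- HFD livers and 9.34, 9.45 and 9.84 in WT HFD livers (0.44 ± 0.15, adjusted p = 0.042). C1qb had 10.36, 10.84 and 11.03 in Ogg1-/- HFD livers and 10.24, 10.34 and 10.62 in WT HFD livers, and did not pass (0.40 ± 0.15, adjusted p = 0.070). C1qb did pass by the methods' t-test, with the compared groups alone, with array weights and without dim probe sets. The call of C1qa was lost without Ogg1-/- HFD replicate 1 or WT HFD replicate 4, and that of C1qc without each of 8 livers (Ogg1-/- HFD replicates 1, 2, 5 and 6, and WT HFD replicates 1, 2, 4 and 6), with an adjusted p of up to 0.094. Under quantile normalization C1qc missed the threshold (adjusted p = 0.067).

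Of the 12 macrophage and myeloid markers, 1 was higher and 2 were lower. Tyrobp, which codes for the adaptor DAP12 that signals for TREM2 and other receptors, had 9.39, 9.80 and 9.90 in Ogg1-/- HFD livers, against 8.96, 9.11 and 9.63 in WT HFD livers. The difference was 0.53 ± 0.16 (adjusted p = 0.022), and its call was lost without Ogg1-/- HFD replicate 2, WT HFD replicate 4 or WT HFD replicate 6. Msr1, the class A scavenger receptor that takes up modified low-density lipoprotein, had 6.90, 7.02 and 7.24 in Ogg1-/- HFD livers and 7.46, 7.71 and 7.80 in WT HFD livers. The groups did not overlap, and the difference was -0.64 ± 0.12 (adjusted p = 0.0020), a 1.56-fold fall. Mpeg1, the pore-forming protein perforin-2 of macrophages, had 7.33, 7.65 and 8.02 in Ogg1-/- HFD livers and 7.82, 8.24 and 8.34 in WT HFD livers (-0.50 ± 0.13, adjusted p = 0.010). The calls of Vsig4, Msr1 and Mpeg1 remained without any 1 of the 24 livers, and only in these 3 of the 10 markers.

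The other 9 myeloid markers did not pass, with differences between -0.15 and 0.37. Cd68, a lysosomal protein of macrophages, averaged 9.25 ± 0.21 in Ogg1-/- HFD livers and 8.94 ± 0.20 in WT HFD livers (SD, n = 6 each; limma adjusted p = 0.081). Fcer1g, the Fc receptor gamma chain, averaged 9.87 ± 0.20 in Ogg1-/- HFD livers and 9.49 ± 0.27 in WT HFD livers (adjusted p = 0.087). Csf1r and, among the T cell genes, Cd4 are given as well and were chosen after their values were seen. Csf1r, the receptor for the growth factors CSF1 and IL-34 that macrophages need, had 8.77 ± 0.05 in Ogg1-/- HFD livers and 8.75 ± 0.13 in WT HFD livers. The 95% interval of the Csf1r difference was -0.16 to 0.19. Fcgr1 differed by -0.15 (adjusted p = 0.22), and Cd14, Aif1, Lyz2, Itgam and Itgax lay between -0.05 and 0.17.

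Trem2 and Gpnmb, which mark macrophages that gather around lipid-laden hepatocytes, did not differ by genotype beyond their spread. Trem2 had 6.66, 6.75 and 7.13 in Ogg1-/- HFD livers and 6.42, 6.73 and 7.21 in WT HFD livers (0.05, 95% interval -0.18 to 0.29, adjusted p = 0.82). Gpnmb had 5.23, 5.44 and 6.35 in Ogg1-/- HFD livers and 4.85, 5.25 and 6.43 in WT HFD livers (0.07, interval -0.41 to 0.54, adjusted p = 0.89). Gpnmb was the most variable marker within the HFD groups, with an SD of 0.43 in Ogg1-/- HFD livers and 0.68 in WT HFD livers.

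Of the 12 lymphocyte markers, 1 was higher, 1 was lower and 10 did not pass. Nkg7, a granule membrane protein of cytotoxic lymphocytes, had 6.63, 6.67 and 6.78 in Ogg1-/- HFD livers and 5.86, 6.32 and 6.52 in WT HFD livers. Every Ogg1-/- HFD liver lay above every WT HFD liver, and Msr1 and Nkg7 were the 2 markers whose groups did not overlap, beside 12.1% of probe sets. The difference was 0.42 ± 0.14 (adjusted p = 0.033), and its call was lost without each of 6 livers (replicates 1, 2 and 6 of Ogg1-/- HFD and 1, 4 and 6 of WT HFD). The other 5 genes of NK and cytotoxic cells (Klrb1c, Ncr1, Gzma, Gzmb and Prf1) differed by 0.09 to 0.20 and did not pass, with the smallest adjusted p of 0.13 in Gzmb, which codes for granzyme B.

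Ms4a1, which codes for CD20, had 4.72, 4.81 and 5.36 in Ogg1-/- HFD livers and 5.17, 5.31 and 5.50 in WT HFD livers (-0.37 ± 0.12, adjusted p = 0.035). By contrast, Cd79a, a part of the B cell receptor, averaged 6.09 ± 0.37 in Ogg1-/- HFD livers and 5.76 ± 0.22 in WT HFD livers (adjusted p = 0.29). The 2 B cell genes therefore differed in opposite directions, and only Ms4a1 passed; its call was lost without each of 7 livers (replicates 1, 2, 3 and 6 of Ogg1-/- HFD and 2, 4 and 6 of WT HFD) by the methods' t-test (adjusted p = 0.053) and under quantile normalization (adjusted p = 0.054). Cd3e, Cd3d, Cd8a and Cd4 of T cells differed by 0.001 to 0.15. The 95% interval was -0.05 to 0.36 for Cd3e and -0.17 to 0.17 for Cd4. Of the 12 lymphocyte probe sets, 9 averaged below the median of all probe sets, Ms4a1 among them.

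**Figure D2:**
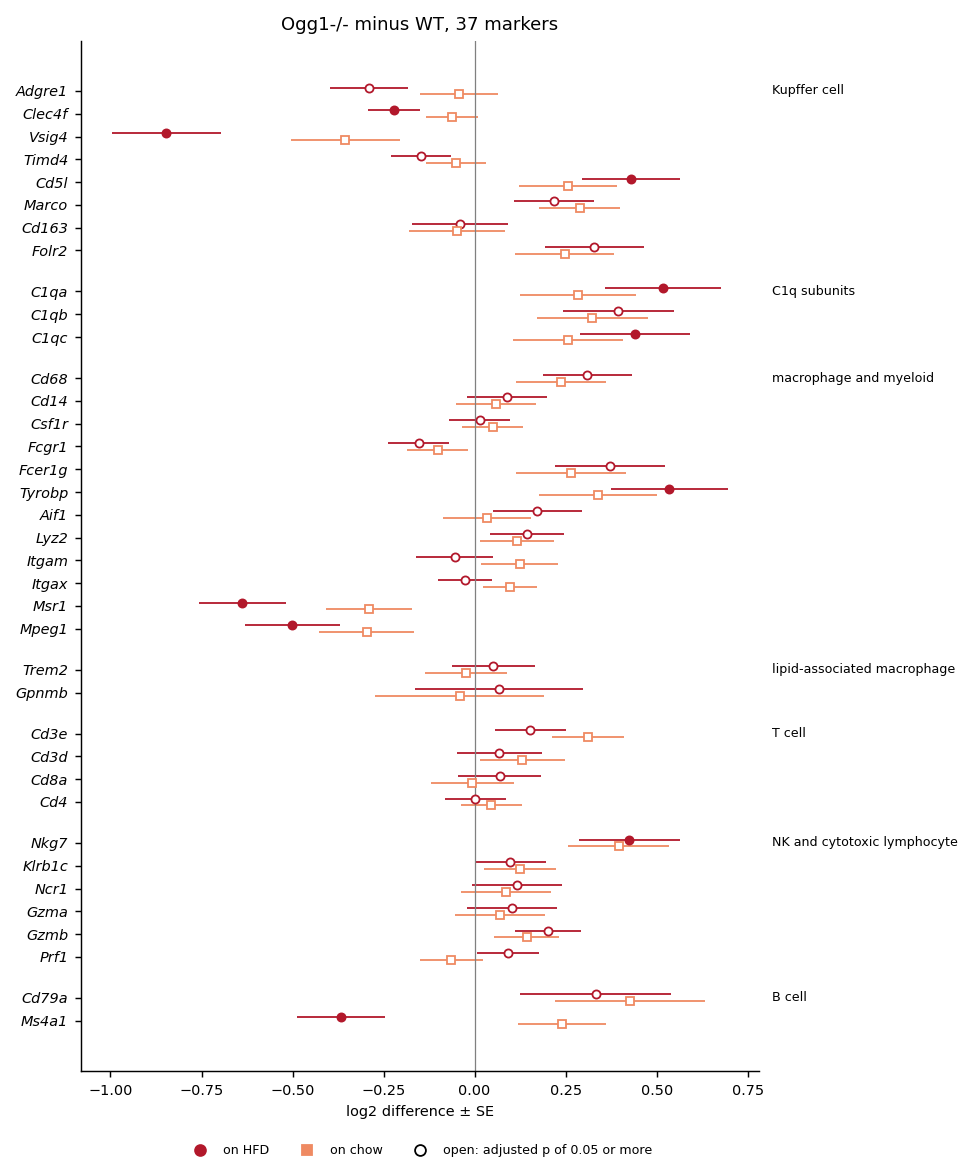
Log2 difference ± SE, Ogg1-/- minus WT (x axis), of 37 markers by class (y axis), on HFD (circles) and on chow (squares); filled symbols passed an adjusted p of 0.05 in limma. On HFD, filled symbols lie on both sides of 0, from -0.85 for Vsig4 to 0.53 for Tyrobp; on chow no symbol is filled.

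The promoters of 4 markers that passed on HFD are shown because these genes moved in opposite directions while Spi1, which codes for the macrophage factor PU.1, was itself higher. Capitals mark the core motif of PU.1, GAGGAA, on either strand. The sequences are from RefSeq (GRCm38.p6) and span 300 bases around the annotated start. Vsig4 (chrX:96293389-96293688, minus strand) and Mpeg1 (chr19:12460520-12460819, plus strand) were lower. C1qc (chr4:136892865-136893164, minus strand) and Cd5l (chr3:87357631-87357930, plus strand) were higher.
Vsig4: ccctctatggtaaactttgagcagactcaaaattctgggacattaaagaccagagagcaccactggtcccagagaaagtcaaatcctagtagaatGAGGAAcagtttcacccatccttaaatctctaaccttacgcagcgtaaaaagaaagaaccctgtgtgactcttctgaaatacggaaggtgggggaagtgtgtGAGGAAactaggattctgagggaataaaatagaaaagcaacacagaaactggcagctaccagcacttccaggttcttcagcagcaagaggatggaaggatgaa
Mpeg1: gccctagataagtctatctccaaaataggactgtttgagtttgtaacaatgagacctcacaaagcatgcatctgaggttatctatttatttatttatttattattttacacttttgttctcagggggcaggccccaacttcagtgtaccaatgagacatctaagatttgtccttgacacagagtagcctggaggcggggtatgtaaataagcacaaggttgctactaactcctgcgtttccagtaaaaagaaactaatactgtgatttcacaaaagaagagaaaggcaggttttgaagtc
C1qc: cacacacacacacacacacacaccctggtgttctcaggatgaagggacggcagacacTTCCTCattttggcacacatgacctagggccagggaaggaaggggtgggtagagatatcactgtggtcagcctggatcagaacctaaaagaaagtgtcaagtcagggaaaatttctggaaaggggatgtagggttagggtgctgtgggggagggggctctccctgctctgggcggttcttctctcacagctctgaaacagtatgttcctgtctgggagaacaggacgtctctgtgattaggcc
Cd5l: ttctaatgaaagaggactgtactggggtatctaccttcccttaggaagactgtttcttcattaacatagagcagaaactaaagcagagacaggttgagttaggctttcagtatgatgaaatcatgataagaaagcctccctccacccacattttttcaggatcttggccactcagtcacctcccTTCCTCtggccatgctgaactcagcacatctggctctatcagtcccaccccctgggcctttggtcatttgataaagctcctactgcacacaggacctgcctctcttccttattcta
The motif stood 2 times in the Vsig4 window, 0 times in that of Mpeg1 and 1 time each in those of C1qc and Cd5l. Of the 10 markers that passed, 6 have a promoter in the table, and the motif stood in 2 of 3 that were higher and 1 of 3 that were lower; Clec4f and Nkg7, which are not shown, have none. A window with the motif was found for 17 of the 29 markers with a promoter in the table, and for 28.3% of all 32851 promoters of that length. A match is a description of the letters and not a bound site.

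Genes that build and instruct Kupffer cells, listed beside the markers, also went both ways on HFD, where 11.9% of all genes were higher and 11.8% lower. Of 9 measured genes listed as transcription factors of Kupffer cells, 3 were higher and 0 were lower. The signals are of whole liver, and which cells they come from was not tested. Spi1 differed by 0.59 ± 0.15 (adjusted p = 0.0095), Cebpb, a factor of myeloid and acute-phase genes, by 0.65 ± 0.14 (adjusted p = 0.0035), and Rxra, the shared partner of LXR and other nuclear receptors, by 0.48 ± 0.11 (adjusted p = 0.0049). Of 10 signals of the CSF1, TGF-beta and Notch pathways, 3 were higher and 2 were lower. The 3 with the smallest p were Rbpj, the Notch transcription factor (-0.59 ± 0.14, adjusted p = 0.0060), Tgfbr1, a TGF-beta receptor (-0.66 ± 0.18, adjusted p = 0.012), and Dll1, a Notch ligand (0.39 ± 0.12, adjusted p = 0.024).

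Of 12 other scavenger and phagocytic receptors, 0 were higher and 4 were lower, beside 11.9% and 11.8% of all genes, with a median difference of -0.12. Mrc1, the mannose receptor CD206, fell by 0.62 on the log2 scale (adjusted p = 0.0064), Mertk, which takes up dying cells, by 0.44 (adjusted p = 0.0073) and Colec12, a scavenger collectin, by 0.77 (adjusted p = 0.0076). Of 5 subunits of the phagocyte NADPH oxidase, Cybb was lower (-0.47, adjusted p = 0.011) and Ncf1 higher (0.19, adjusted p = 0.0496). Among 6 genes of the C1 proteases and early complement, C1ra, a protease that C1q activates, was higher (0.50 ± 0.17, adjusted p = 0.039) and the other 5 did not pass. No gene passed among 7 of Fc receptor and ITAM signalling, 9 of MHC class II presentation, 8 of lipid-associated macrophages beyond the 2 markers, 8 of monocytes, 10 of neutrophils, 10 of dendritic cells and 14 further lymphocyte genes (limma; unadjusted p under 0.05 in 1, 1, 3, 2, 0, 0 and 2 of them).

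Markers of other cells of the sinusoid were counted in the same livers, beside the same 11.9% of genes higher and 11.8% lower. Of 13 genes of sinusoidal endothelial cells, 2 were higher and 7 were lower, with a median difference of -0.48, among them Tek, the angiopoietin receptor (-0.73), and Clec4g, a sinusoidal lectin (-0.52), while Gpr182 was higher (0.56). Their mean log2 level ran from 8.41 to 8.59 in Ogg1-/- HFD livers and from 8.67 to 8.88 in WT HFD livers. Of 12 stellate cell genes, 0 were higher, 4 were lower and 8 did not pass, with a median difference of 0.01; the lower ones were led by the matrix gene Dcn (-0.85), Lrat, which stores vitamin A as esters (-0.96), and the growth factor Hgf (-0.52), with a mean level of 8.08 to 8.46 in Ogg1-/- HFD livers and 8.20 to 8.55 in WT HFD livers. Mrc1, Stab1 and Stab2 stand in the endothelial as well as in the scavenger receptor list, and Fcgr2b in the endothelial and Fc receptor lists. Rac2 stands in the oxidase and pan-leukocyte lists, and Cd36 in those of scavenger receptors and lipid-associated macrophages. Of 10 pan-leukocyte genes, Cd52 was higher (0.59) and Lcp1 lower (-0.53); Ptprc, which codes for CD45, did not pass (-0.36, adjusted p = 0.077). Of 10 hepatocyte genes, Fgb alone passed (-0.43), and the 6 cholangiocyte genes all missed the threshold. Of 5 erythroid and platelet genes, Alas2 of red cell precursors was higher (0.51) and the other 4 did not pass. The part of these lists in the marker differences was not tested.

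On chow, 0 of the 37 markers passed in limma between Ogg1-/- and WT livers, beside 0.478% of probe sets; 8 had an unadjusted p under 0.05, and the methods' t-test called 0, with 3 at an unadjusted p under 0.05. Vsig4 averaged 10.00 ± 0.33 in Ogg1-/- Chow livers and 10.36 ± 0.21 in WT Chow livers (SD, n = 6 each; limma adjusted p = 0.22). Msr1 averaged 7.53 ± 0.32 in Ogg1-/- Chow livers and 7.82 ± 0.19 in WT Chow livers (adjusted p = 0.21). Without Ogg1-/- Chow replicate 1 these differences were -0.24 for Vsig4 and -0.16 for Msr1, against -0.36 and -0.29 with it. The smallest adjusted p on chow was that of Cd3e (limma, 0.14), a chain of the T cell receptor complex. It averaged 6.65 ± 0.20 in Ogg1-/- Chow livers and 6.34 ± 0.20 in WT Chow livers. Without Ogg1-/- Chow replicate 6, Cd3e passed (adjusted p = 0.046). Over all probe sets, 555 were then higher and 486 lower, against 86 and 84 with all livers in. C1qa, C1qb and C1qc differed by 0.26 to 0.32 and Nkg7 by 0.40, and all missed the threshold. Without Ogg1-/- Chow replicate 1 the differences were 0.11 for C1qa, 0.16 for C1qb, 0.085 for C1qc and 0.29 for Nkg7.

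Whether the genotype differences themselves changed with the diet was tested as an interaction. In limma, 0 of the 37 markers passed, beside 0.00281% of probe sets (1 probe set), and 3 had an unadjusted p under 0.05: Ms4a1, Vsig4 and Msr1. The largest was Ms4a1, at -0.61 ± 0.17 (adjusted p = 0.52), with a genotype difference of -0.37 on HFD and 0.24 on chow. Msr1 had an interaction of -0.35 ± 0.17 (adjusted p = 0.72) and Vsig4 of -0.49 ± 0.21 (adjusted p = 0.67). Without Ogg1-/- Chow replicate 1, Ms4a1 (-0.68, adjusted p = 0.037) and Msr1 (-0.48, adjusted p = 0.048) passed in limma. Over all 35556 probe sets, 140 were then higher and 399 lower in the interaction. The methods' t-test has no interaction term.

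Within Ogg1-/- mice, HFD against chow changed 6 of the 37 markers. Higher were 4, beside 4.58% of probe sets, and lower were 2, beside 4.94%. Cd5l had 9.85, 10.12 and 10.21 in Ogg1-/- HFD livers, against 9.05, 9.44 and 9.99 in Ogg1-/- Chow livers (0.64 ± 0.13, adjusted p = 0.0052). The highest Ogg1-/- Chow value, 9.99, was that of replicate 1, and the next was 9.47. Tyrobp averaged 9.73 ± 0.19 in Ogg1-/- HFD livers and 9.15 ± 0.45 in Ogg1-/- Chow livers (SD, n = 6 each; limma adjusted p = 0.025), and its call was lost without Ogg1-/- HFD replicate 1 or 2 or Ogg1-/- Chow replicate 4, 5 or 6.

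Cd68 averaged 9.25 ± 0.21 in Ogg1-/- HFD livers and 8.77 ± 0.25 in Ogg1-/- Chow livers (difference 0.48, adjusted p = 0.017), a call lost without Ogg1-/- Chow replicate 5 or 6. C1qb averaged 10.77 ± 0.24 in Ogg1-/- HFD livers and 10.29 ± 0.41 in Ogg1-/- Chow livers (0.48, adjusted p = 0.048). Msr1, the scavenger receptor that was lower by genotype, had 6.90, 7.02 and 7.24 in Ogg1-/- HFD livers and 6.88, 7.65 and 7.76 in Ogg1-/- Chow livers (-0.49 ± 0.12, adjusted p = 0.013). Its lowest Ogg1-/- Chow value was replicate 1, and the next was 7.54, so that the other 5 livers lay above every Ogg1-/- HFD liver. Ms4a1 averaged 4.95 ± 0.27 in Ogg1-/- HFD livers and 5.33 ± 0.22 in Ogg1-/- Chow livers (-0.38, adjusted p = 0.0496), close to the threshold. When 1 liver at a time was left out, the call of Ms4a1 remained only without Ogg1-/- HFD replicate 4 or 5, Ogg1-/- Chow replicate 1 or WT Chow replicate 4 or 6, and that of C1qb only without Ogg1-/- HFD replicate 3, WT HFD replicate 5, Ogg1-/- Chow replicate 1 or WT Chow replicate 6.

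With the 12 arrays of the compared groups fitted alone, Cd5l was the 1 marker of the 6 that still passed, and by the methods' t-test 0 of the 37 passed, with 14 at an unadjusted p under 0.05. The counts in Ogg1-/- mice turned on Ogg1-/- Chow replicate 1. Without it, 12 markers were higher on HFD (Cd5l, Tyrobp, Cd68, C1qa, C1qb, C1qc, Fcer1g, Folr2, Trem2, Gpnmb, Itgax and Prf1) and 3 were lower (Msr1, Ms4a1 and Vsig4). The counts over all 35556 probe sets rose too, to 4563 higher and 4472 lower, against 1630 and 1758 with all livers in. Gpnmb had 5.23 to 6.35 in Ogg1-/- HFD livers against 4.78 to 5.22 in Ogg1-/- Chow livers. It was the 1 marker whose groups did not overlap with all livers in, beside 2.4% of probe sets. The Gpnmb probe set is dim, with a mean of 5.29 over 24 livers, below the median of all probe sets (5.93). Its difference of 0.62 ± 0.23 missed the threshold in limma (adjusted p = 0.090), as did that of Trem2 (0.32 ± 0.11, adjusted p = 0.075).

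**Figure D3:**
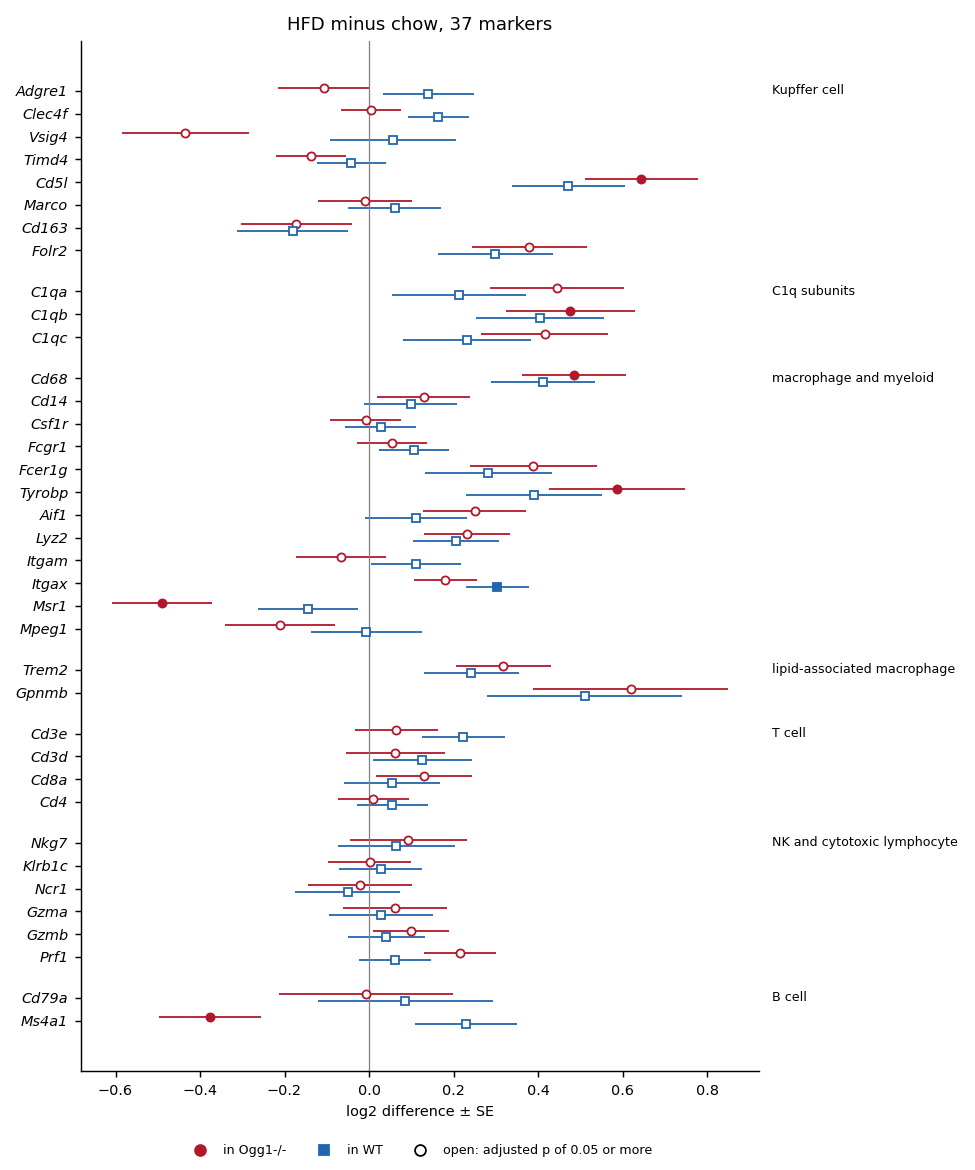
Log2 difference ± SE, HFD minus chow (x axis), of 37 markers by class (y axis), in Ogg1-/- livers (circles) and WT livers (squares); filled symbols passed an adjusted p of 0.05 in limma. Filled symbols in Ogg1-/- livers run from -0.49 for Msr1 to 0.64 for Cd5l; Itgax (0.30) is the only filled symbol in WT livers.

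In WT mice, HFD raised 1 of the 37 markers, beside 0.532% of probe sets, and lowered 0 in limma and by the methods' t-test, beside 0.394%; in all, 10 had an unadjusted p under 0.05 in limma and 8 by the methods' t-test. Itgax, which codes for CD11c, had 5.25, 5.35 and 5.73 in WT HFD livers and 4.93, 5.14 and 5.19 in WT Chow livers (0.30 ± 0.07, adjusted p = 0.049). Its probe set is dim, and when 1 liver at a time was left out the call remained only without Ogg1-/- HFD replicate 1, WT HFD replicate 2 or Ogg1-/- Chow replicate 1, and was lost without each of the other 21 livers. Without Ogg1-/- Chow replicate 1, Cd5l passed as well. Over all probe sets, 375 were then higher between the diets in WT mice, against 189 with all livers in. Itgax, C1qb and Cd68 did not overlap between the diets, beside 2.25% of probe sets. Cd68 had 8.77 to 9.33 in WT HFD livers and 8.09 to 8.66 in WT Chow livers (adjusted p = 0.13), and C1qb 10.24 to 10.62 in WT HFD livers and 9.48 to 10.08 in WT Chow livers (adjusted p = 0.23).

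The diet comparisons share no livers with each other, but each shares livers with the genotype comparisons, and the values of 1 gene can be set side by side. Cd5l differed by 0.64 between the diets in Ogg1-/- mice and by 0.47 in WT mice (adjusted p = 0.10). Gpnmb differed by 0.62 in Ogg1-/- mice and by 0.51 in WT mice (adjusted p = 0.34), and Trem2 by 0.32 in Ogg1-/- mice and 0.24 in WT mice (adjusted p = 0.35). Vsig4 differed by -0.43 in Ogg1-/- mice (adjusted p = 0.067) and by 0.06 in WT mice (adjusted p = 0.90). These pairs are the interaction seen from the other side, and 0 of them passed it with all livers in.

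An axis of variation over all probe sets was scored in each liver, and how far each marker follows it was not measured. The first component of the deviations within the chow groups, which took 40.2% of that variation, gave Ogg1-/- Chow replicate 1 a score of 93.4, Ogg1-/- HFD livers 31.1 to 67.3, WT HFD livers -8.21 to 22.9, the other Ogg1-/- Chow livers -29.6 to 20.2 and WT Chow livers -33.6 to 6.0. Ogg1-/- HFD livers thus all lay above WT HFD livers. On HFD the score and the genotype are therefore confounded, and a call lost with the score cannot be assigned to either. With the score as a covariate, Vsig4 (-0.51 ± 0.11, adjusted p = 0.020) and Msr1 (-0.35 ± 0.08, adjusted p = 0.020) passed between the genotypes on HFD. The other 8 of the 10 markers did not, with a difference of 0.16 in C1qa and 0.16 in Tyrobp. Over all 35556 probe sets, 473 were higher and 490 lower in this fit, against 3648 and 3397 without the score. In Ogg1-/- mice, Cd5l (0.44, adjusted p = 0.024) and Msr1 (-0.27, adjusted p = 0.040) passed between the diets. Over all probe sets, 839 were higher and 853 lower in that comparison, against 1630 and 1758 without the score. What the axis stands for was not tested.

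Set side by side as classes, with each gene taken as its deviation from its mean over 24 livers, the C1q subunits averaged 0.41 ± 0.19 in Ogg1-/- HFD livers, -0.04 ± 0.15 in WT HFD livers, -0.04 ± 0.43 in Ogg1-/- Chow livers and -0.33 ± 0.24 in WT Chow livers (SD, n = 6 each). The 8 Kupffer cell markers, which hold genes of both directions, averaged 0.00 ± 0.05 in Ogg1-/- HFD livers, 0.07 ± 0.10 in WT HFD livers, -0.02 ± 0.07 in Ogg1-/- Chow livers and -0.05 ± 0.14 in WT Chow livers. The 12 lymphocyte markers averaged 0.08 ± 0.10 in Ogg1-/- HFD livers, -0.03 ± 0.09 in WT HFD livers, 0.05 ± 0.11 in Ogg1-/- Chow livers and -0.11 ± 0.09 in WT Chow livers. The levels describe the livers and were not tested, since the members were chosen with results known. Ogg1-/- Chow replicate 1 had a C1q level of 0.81, and the other 5 livers of its group lay between -0.37 and -0.10.

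**Figure D4:**
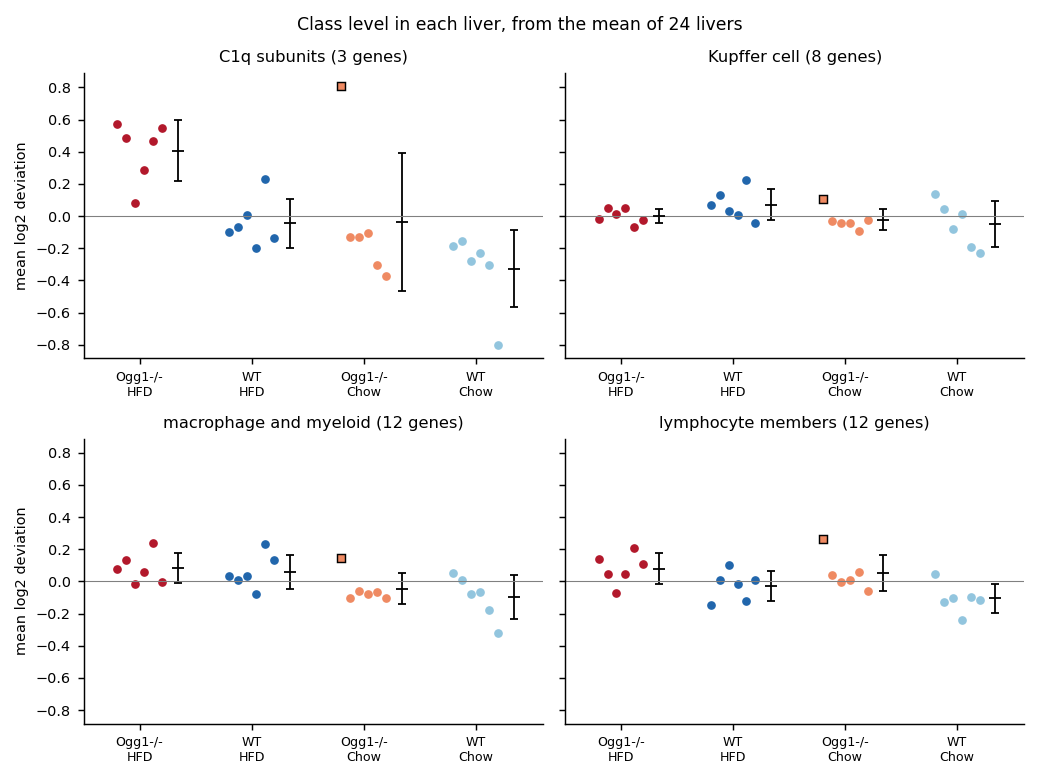
Mean log2 deviation from the mean of 24 livers (y axis) for 4 marker classes in each liver, by group (x axis); bars are the mean ± SD of 6 livers and the square is Ogg1-/- Chow replicate 1. The C1q level of the square is 0.81, above the highest Ogg1-/- HFD liver, while the Kupffer cell level of all 24 livers lies between -0.23 and 0.22.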

How the data were processed

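The submitters' processing notes name RMA, and the deposited value the authors gave for each probe set is a log2 signal; the study's methods name GC-RMA for its own gene lists. Scanner files were not used, and no source used here names the annotation build of the array. The number of arrays limits the precision. A single limma model (version 3.58.1, R 4.3.3; lmFit, contrasts.fit and eBayes) of the 4 groups took in all 35556 probe sets without a filter, and Benjamini-Hochberg adjustment ran over all of them (threshold 0.05, with a fold of 1.5 beside it). Each SE and 95% interval is from this model. Replicates are separate mice, and no pair of arrays held identical values. Exact permutation tests used scipy 1.17.1.

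The platform table gives 1 symbol to 21789 probe sets, several to 1621 and none to 12146. A gene was read from its brightest probe set of a single symbol, and each of the 37 measured markers has 1 such probe set. Itgam is also named on 3 probe sets with several symbols, which were not read. The markers and the other gene lists were chosen with earlier results of these data known. By the rule for named genes, the Kupffer cell, C1q and lipid-associated classes and every marker that passed a comparison get values per group, other classes up to 3 genes and each further list at most 3, by the smallest adjusted p between the genotypes on HFD. When 35556 probe sets were simulated for that comparison, 78 of 100 that changed by 1.6-fold passed and 99 of 100 that changed by 2.5-fold. The simulated noise was independent between probe sets, without the shared axis, and no other probe sets were changed. These shares therefore need not hold for the markers.

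Same-numbered mice were not treated as pairs, since the residuals of their arrays correlated at -0.27 to 0.43 (median -0.03 over 36 pairs). The alternatives were median centring, quantile normalization, leaving out dim probe sets, the compared groups alone, the methods' t-test, a trended robust prior, array weights, other summaries per gene, the axis score as a covariate (a pattern known from earlier results), the replicate block, a fold of 1.5 and leaving out each array.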

Additional observations from a re-analysis of the deposited data

Results flagged for a closer look

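In 18 of 148 groups of 6 values (37 markers in 4 groups), 1 liver lay further from the others than Dixon's 95% critical value for the gap over the range; chance gives this in about 1 in 20 groups. Of the 18, 8 were Ogg1-/- Chow replicate 1. It had the highest log2 signal of its group in C1qa (10.01, next 9.09), C1qb (11.10, next 10.29), C1qc (10.42, next 9.51), Tyrobp (10.04, next 9.09), Fcer1g (10.25, next 9.45), Cd68 (9.23, next 8.77) and Cd3d (5.08, next 4.68), and the lowest in Msr1 (6.88, next 7.54).

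In the same macrophage genes WT Chow replicate 6 was the lowest of its group, with 9.48 in C1qb (next 10.05), 8.87 in C1qc (next 9.30), 8.09 in Cd68 (next 8.58) and 8.39 in Tyrobp (next 8.82). WT Chow replicate 3 was the highest in Itgam, at 5.57.

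On HFD, Ogg1-/- HFD replicate 5 was the lowest of its group in Cd163, at 5.28 (next 5.88), and the highest in Trem2, at 7.13 (next 6.78). WT HFD replicate 3 was the lowest in Vsig4, at 9.93 (next 10.43), WT HFD replicate 5 the highest in Fcer1g, at 10.02 (next 9.53), and WT HFD replicate 4 the lowest in Aif1, at 5.17 (next 5.56).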

How the results depend on the processing

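Counts are of markers that passed, out of 37. Between the genotypes on HFD, 5 were higher and 5 lower. Higher were 8 of the 23 left without dim probe sets, 9 with array weights and 0 with the axis covariate, which left 2 lower. Over all probe sets, higher were 4105 of 17778 without dim probe sets, 5026 of 35556 with array weights and 473 with the axis covariate. The methods' t-test gave 6 markers higher and 4 lower, and the compared groups alone 7 markers higher and 5 lower. Without 1 liver, 0 to 10 were higher and 3 to 6 lower. At a fold of 1.5, 0 were higher and 2 lower. On chow, 0 to 1 were higher and 0 to 0 lower without 1 liver. In the interaction, leaving out 1 liver gave 0 to 0 higher and 0 to 2 lower.

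Between the diets in Ogg1-/- mice, 4 were higher and 2 lower. Higher were 8 of the 23 left without dim probe sets, 1 with the compared groups alone and 0 by the methods' t-test. With array weights 12 were higher, with the axis covariate 1, and at the fold of 1.5 there were 2. Over all probe sets, higher were 2095 of 17778 without dim probe sets and 4059 of 35556 with array weights. Of the markers, 1 was lower with median centring, quantile normalization or the axis covariate. With the compared groups alone, by the methods' t-test or at the fold of 1.5, 0 markers were lower. Leaving out 1 liver gave 1 to 12 higher and 1 to 3 lower. In WT mice 1 was higher, which was Itgax. The count was 0 with the compared groups alone, by the methods' t-test, with the axis covariate or at the fold of 1.5. It was 2 with array weights and 0 to 2 without 1 liver, and 0 to 0 were lower. Without dim probe sets, 0 of the 23 left were higher, since that filter removes the Itgax probe set before the test.

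With the replicate number as a block, 5 markers were higher and 6 lower between the genotypes on HFD, 0 in the interaction, 3 higher and 2 lower between the diets in Ogg1-/- mice, where C1qb lost its call (adjusted p = 0.052), and 0 higher between the diets in WT mice; the labels do not pair the mice. Quantile normalization ended 2 calls between the genotypes on HFD, C1qc and Ms4a1. No passed difference changed its sign under any alternative run. The cause of these shifts was not tested. Signals near background limit what these arrays can show, and 9 of the 12 lymphocyte probe sets averaged below the median of all probe sets. So did 5 of the 25 Kupffer cell and macrophage probe sets (Marco, Aif1, Itgam, Itgax and Gpnmb).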
